A study of Mus musculus with 24 samples.

Results

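miR-9 is a microRNA (miRNA), a short noncoding RNA that pairs with messenger RNAs and lowers the protein made from them. It was taken as the single probe named mmu-miR-9, 1 of 566 mouse miRNA probes among the 599 miRNA probes of the nCounter panel, and no probe for its partner strand miR-9* was on that panel. miR-9 is best known from the developing brain, where it is abundant in neural progenitors and neurons and restrains genes that keep progenitors dividing. In human breast cancer cells it is known to target the messenger RNA of the adhesion protein E-cadherin, and it has been linked to motility and metastasis. Normal mammary epithelium and lung are not tissues in which it is known to be abundant.

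The study followed JygMC(A) cells, a line isolated from a mammary carcinoma of a wild mouse of the Sub-Jyg stock, tagged with green fluorescent protein and luciferase (JygMC(A)-GFP/Luc). Female nude mice of the Balb/C strain, 6-9 weeks old and without a thymus, received the cells in the fourth mammary fat pads, and metastases formed in the lungs. Tumor and tissue areas were cut out with a laser, and miRNAs were counted in 24 samples of 7 groups. These were carcinoma areas (n = 5) and EMT-like areas (n = 7) of the primary tumors, lung metastases (n = 4), normal mammary gland (NMG, n = 2) and normal lung parenchyma (n = 2) of Balb/C nude mice, and JygMC(A)-GFP/Luc cells grown as a monolayer (n = 2) or as 3D spheres of the third generation (n = 2). EMT stands for epithelial-to-mesenchymal transition, and EMT-like areas hold spindle-shaped cells. Several carcinoma, EMT-like and metastasis samples came from the same animals, and replicate 1 of each of these 3 groups carries a label that names 3 animals. Primary tumors were removed before lungs were collected, so site and time cannot be told apart. The tumor cells and the normal tissues also differ in mouse stock, so tumor and stock cannot be told apart either. The labels of the normal samples likewise form a series apart from those of the tumor samples.

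The mature sequence of miR-9 is shown first because its seed, bases 2 to 8, sets which messenger RNAs it can pair with. Capitals mark the seed here. The partner strand from the other arm of the hairpin, miR-9-3p, is the one formerly called miR-9*.
miR-9-5p: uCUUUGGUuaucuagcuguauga
miR-9-3p: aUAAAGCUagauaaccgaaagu
In the RefSeq table for GRCm38.p6, miR-9-5p was the only 1 of 1679 mature mouse names with this seed.

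The mouse genome holds 3 hairpins that give rise to miR-9, and they are shown because the probe cannot separate them. Capitals mark the miR-9-5p strand, which is identical in all 3.
Mir9-1: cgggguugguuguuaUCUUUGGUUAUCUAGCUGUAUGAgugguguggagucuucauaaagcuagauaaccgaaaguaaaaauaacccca
Mir9-2: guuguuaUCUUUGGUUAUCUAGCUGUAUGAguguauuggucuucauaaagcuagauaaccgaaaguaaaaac
Mir9-3: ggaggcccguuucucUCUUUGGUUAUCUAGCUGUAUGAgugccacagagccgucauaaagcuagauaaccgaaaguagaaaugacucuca
Aligned end to end, the hairpins of Mir9-1 and Mir9-2 were 78.7% identical, those of Mir9-1 and Mir9-3 78.9%, and those of Mir9-2 and Mir9-3 71.1%. Mir9-1 lies on the plus strand at chr3:88215598-88215686 within the long noncoding RNA gene Gm3764, and the nearest protein-coding gene is Rhbg, 27188 bases away. Mir9-2 lies on the plus strand at chr13:83738814-83738885 within the long noncoding RNA gene C130071C03Rik, 71735 bases from Mef2c. Mir9-3 lies on the plus strand at chr7:79505264-79505353 within the long noncoding RNA gene Mir9-3hg, 37353 bases from Polg. Whether the hairpins fall in exons or introns of these genes was not analysed here. The values of miR-9 below are therefore a sum over 3 loci, and the share of each locus was not tested.

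Each hairpin overlaps an entry for the related miR-9b (Gm25641, Gm51268 and Gm51285). The strand is shown with its seed in capitals because it is the RefSeq mature name with the longest run of bases in common with miR-9-5p, 12.
miR-9b-5p: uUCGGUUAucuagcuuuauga
The panel had no probe of that name, and how far it is read by the miR-9 probe was not tested.

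Deposited values are barcode counts from which the background of the lane had been subtracted, and they were not scaled between lanes. The sum over mouse miRNAs, the depth of a lane, ran from 61497 to 183539 in the 16 tumor samples, from 24418 to 44953 in the 4 cultures, and was 559660 and 525225 in NMG. In normal lung it was 589588 and 2334955. The detection limit of a lane, set 2 SD above the average of its 6 negative controls, lay between 4.0 and 21.4. Depth thus differed between tumor samples, cultures and normal tissues, and a normalized value below is the deposited value divided by a scaling factor of the lane that lay between 0.403 and 5.63.

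miR-9 was well above the detection limit in all tumor-derived samples, and at or under it in 1 of 2 samples of each normal tissue. The deposited value was 1238, 604, 1469, 468 and 783 in carcinoma. In EMT-like areas it had a lowest value of 470, a median of 883 and a highest of 1028. It was 573, 308, 625 and 328 in lung metastasis. Carcinoma held the highest value, while its values of 604, 468 and 783 lay below the EMT-like median, and the 3 groups overlapped. The deposited value was 34 and 10 in NMG, and 7 and 127 in normal lung. It was 692 and 174 in the monolayer and 334 and 278 in spheres. miR-9 was above the limit in 20 of 20 tumor-derived samples, in 1 of 2 NMG samples (10 against a limit of 10.4 in the other) and in 1 of 2 normal lung samples (7 against 14.8 in the other). The 127 of normal lung replicate 2 came from the deepest lane, with a sum of 2334955.

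As a share of all mouse miRNA counts, miR-9 lay between 0.412% and 0.907% in carcinoma. EMT-like areas held 0.327% to 0.680% and lung metastases 0.288% to 0.637%. It made up 1.54% and 0.713% in the monolayer and 0.911% and 0.892% in spheres. In NMG it made up 0.00608% and 0.00190%, and in normal lung 0.00119% and 0.00544%. On this scale all 20 tumor-derived samples lay above all 4 normal samples, and the shares of monolayer replicate 1 and spheres replicate 1 were above the highest carcinoma share.

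After scaling, the normalized value was 1373, 713, 1406, 584 and 1067 in carcinoma, or 1029 ± 374 (SD, n = 5). EMT-like samples ranged from 426 to 917 around a median of 666, or 707 ± 195 (SD, n = 7). In lung metastasis it was 755, 588, 802 and 478, or 656 ± 150 (SD, n = 4). Carcinoma replicates 1, 3 and 5 exceeded every EMT-like and metastasis sample, while replicates 2 and 4 fell within their range. The normalized value was 14.0 and 3.71 in NMG (8.86 ± 7.28, SD, n = 2) and 4.34 and 22.5 in normal lung (13.4 ± 12.9, SD, n = 2). It was 1075 and 355 in the monolayer (715 ± 509, SD, n = 2) and 582 and 689 in spheres (635 ± 75.8, SD, n = 2). The lowest tumor-derived value, 355 in monolayer replicate 2, was 15.7 times the highest normal value, 22.5 in normal lung replicate 2. Without scaling, this ratio was 1.37, from a deposited 174 against 127.

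**Figure D1:**
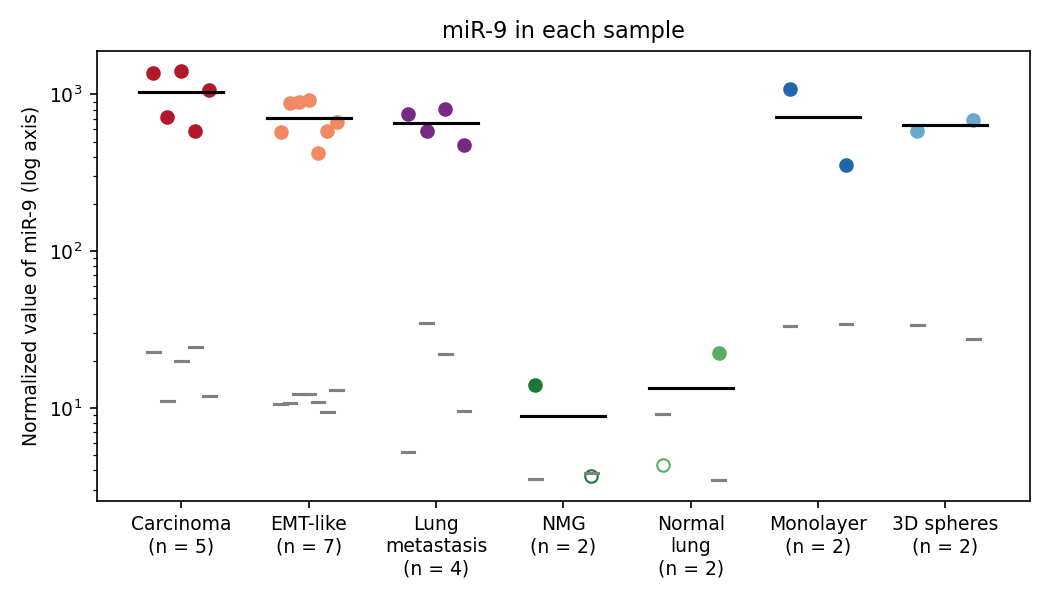
Normalized value of miR-9 (log axis, deposited value divided by the scaling factor of the lane) in each of the 24 samples by group, with black lines for group means, grey ticks for the detection limit of each lane on the same scale, and open circles for samples at or under that limit. The 20 tumor-derived samples sit between 355 and 1406 and the 4 normal samples between 3.71 and 22.5.

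Ordered by the mean of log2(normalized value + 1), the groups ran from carcinoma (9.92) through EMT-like areas (9.42), lung metastasis (9.33), spheres (9.31) and monolayer (9.27) to normal lung (3.49) and NMG (3.07). Among the 6 pairs of neighbours in this order, only monolayer and normal lung did not overlap, with a difference of 5.79 and an exact two-sided permutation p of 0.333, the smallest that 2 against 2 samples allow. The other 5 pairs overlapped, with differences of 0.02 to 0.51 and exact permutation p-values of 0.105 to 1.0. None of the 5 passed the test, so the order within the tumor-derived groups and within the normal tissues is a description only.

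NMG is the kind of tissue in which the tumors were seeded, here from animals with other labels. Against NMG, miR-9 was 115-fold higher in carcinoma, and EMT-like areas exceeded NMG 81.3-fold. The log2 fold change for carcinoma was 6.85 (SE 0.53, 95% interval 5.75 to 7.95, limma adjusted p = 1.85e-09), and 5 of 5 carcinoma samples exceeded both NMG samples. It was 6.34 for EMT-like areas (SE 0.51, 95% interval 5.29 to 7.40, limma adjusted p = 3.53e-09), and 7 of 7 samples exceeded both NMG samples. The exact permutation p was 0.0476 for carcinoma and 0.0278 for EMT-like areas, in each case the smallest that the sample numbers allow. Both comparisons use the same 2 NMG samples and are not independent. Folds are on the scale of value + 1, and 1 of the 2 NMG values was under the limit, so their size rests on values near background. Without NMG replicate 1 the log2 fold changes were 7.69 and 7.18, and without NMG replicate 2 they were 6.02 and 5.51.

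In these comparisons limma called 29.3% of 583 probes for carcinoma and 24.9% for EMT-like areas at an adjusted p under 0.05. With TMM scaling most calls were lower in the tumor, 23.8% of probes for carcinoma and 20.4% for EMT-like areas. Probes called higher made up 5.49% of those tested for carcinoma (32 probes) and 4.46% for EMT-like areas (26 probes), and miR-9 had the largest fold change among them in both. The split of higher and lower calls depended on processing. For carcinoma it was 32 higher and 139 lower, against 5 and 289 without scaling and 58 and 79 when lanes were scaled by the 100 most abundant miRNAs. For EMT-like areas it was 26 and 119, against 10 and 201 and 74 and 72. It also depended on background, and with 2 more SD of the negative controls subtracted it was 171 and 147 for carcinoma and 156 and 161 for EMT-like areas.

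miR-9 was among the few probes called higher under all 6 scalings tried, which were TMM (a trimmed mean of log ratios), none, the 100 most abundant miRNAs, the miRNA total, the mRNA controls and the positive controls. For carcinoma these were 5 of 32 probes, named here after their values were seen, namely miR-9, miR-140, miR-337-5p, miR-1196 and miR-2137. For EMT-like areas they were 6 of 26. Over the 6 scalings the log2 fold change of miR-9 lay between 5.41 and 7.53 for carcinoma and between 5.29 and 7.30 for EMT-like areas. Leaving lanes unscaled moved the middle log2 fold change over all probes by -1.15 for carcinoma and by -0.86 for EMT-like areas. Set against the median of the 196 probes above the limit in at least 12 lanes, miR-9 lay 7.02 higher with TMM and 7.09 higher without scaling for carcinoma, and 6.68 and 6.80 higher for EMT-like areas.

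Lung metastases were compared with normal lung, which came from animals with other labels and not from around these metastases. miR-9 was 57.4-fold higher in metastases, with a log2 fold change of 5.84 (SE 0.55, 95% interval 4.70 to 6.98, limma adjusted p = 1.38e-08). All 4 metastases exceeded both normal lung samples. The exact permutation p was 0.0667, the smallest that 4 against 2 samples allow. limma called 49.2% of the 583 probes in this comparison. Of all 583, 7.03% (41 probes) were called higher and 42.2% lower, with miR-9 first by fold change among the higher ones. Higher and lower calls numbered 41 and 246, against 8 and 377 without scaling and 95 and 128 when scaled by the 100 most abundant miRNAs, and 193 and 141 with the higher background. Under all 6 scalings, only 3 of the 41 probes were called higher, named after their values were seen: miR-9, miR-669i and miR-690. The log2 fold change of miR-9 was 6.91 without normal lung replicate 2 and 4.77 without replicate 1, and lay between 3.45 and 7.24 over the 6 scalings.

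The 2 normal tissues were also set against each other, since a difference between them could carry into the comparisons above. Normal lung and NMG samples carry paired labels, 15 and 16. miR-9 was lower in lung than in NMG under label 15 (4.34 against 14.0) and higher under label 16 (22.5 against 3.71). The log2 fold change of lung over NMG was 0.41 (95% interval -0.90 to 1.73, limma adjusted p = 0.748), and 11.7% of probes were called, 10.5% higher and 1.20% lower in lung. It was -0.30 when lanes were scaled by the miRNA total.

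**Figure D2:**
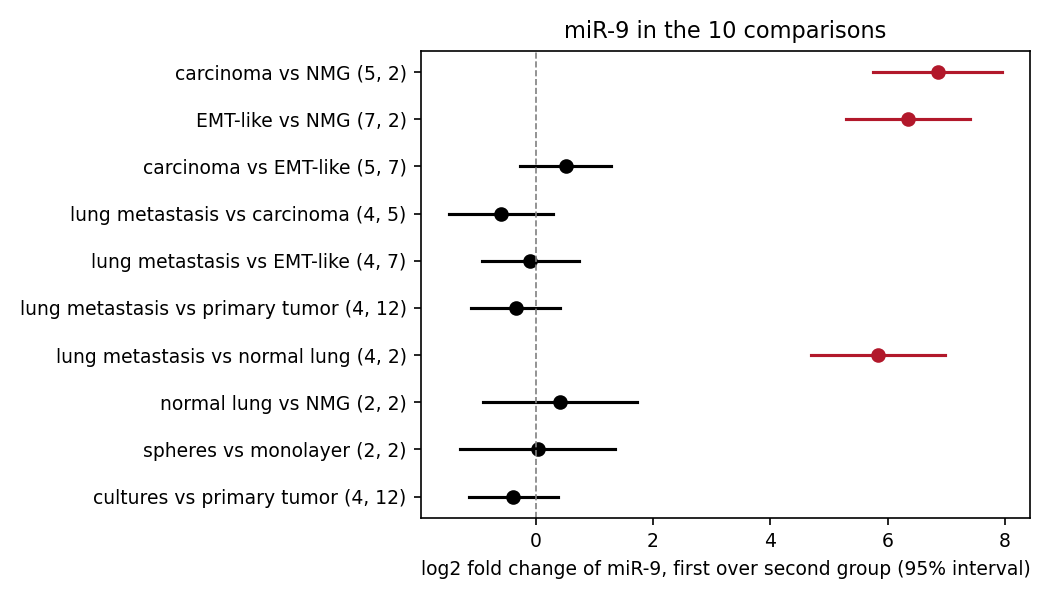
log2 fold change of miR-9 in the 10 comparisons, first group over second, with 95% intervals from limma; sample numbers are in parentheses, and red marks an adjusted p under 0.05. The 3 comparisons of a tumor group with a normal tissue lie at 5.84 to 6.85, and the intervals of the other 7 include 0.

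Of 14 marker miRNAs of blood, vessel, stromal and muscle cells, 10 were higher in all 4 normal samples than in any tumor sample, and 8 when lanes were scaled by the miRNA total or the 100 most abundant miRNAs. miR-126-3p and miR-126-5p, markers of endothelium, summed to a normalized 819 to 3114 in the tumor samples. They summed to 17649 and 10971 in NMG, to 67772 and 70141 in normal lung, and were at or below 0 in all 4 cultures. miR-126-3p was the more abundant. miR-144 and miR-451 of red blood cells, of which miR-451 was the more abundant, summed to 72.0 to 476 in the tumor samples, 7971 and 8374 in NMG, and normal lung had 47915 and 55257. Both were at or below 0 in the cultures. The 4 leukocyte markers (miR-142-3p, miR-142-5p, miR-150 and miR-223) summed to 230 to 887 in the tumor samples, 5613 and 2500 in NMG, and 4668 and 6114 in normal lung. Their sums were 99.1 to 139 in the cultures. miR-142-3p was the most abundant of them in every normal sample. miR-142-5p went the other way, with means of 50.0, 32.3 and 54.2 for carcinoma, EMT-like areas and metastasis against 20.6 for NMG and 21.9 for normal lung, and 72.7 and 81.6 for monolayer and spheres. miR-143 and miR-145 of smooth muscle and stroma were again higher in normal tissue, with sums of 688 to 1689 in the tumor samples, 6039 and 7591 in NMG, and normal lung had 13953 and 9932. The cultures had 404 to 1371. miR-145 was the more abundant. The 4 muscle markers (miR-1, miR-133a, miR-133b and miR-206) summed to 10.5 to 75.2 in the tumor samples, 1027 and 44.5 in NMG, normal lung had 585 and 1724, and 104 to 169 was seen in the cultures, so NMG replicate 2 lay within the tumor range for them. Only miR-1 of these 4 separated all normal from all tumor samples. In the cultures, which hold no host vessels or blood, endothelial and red cell markers were at or below 0 and miR-9 lay between 355 and 1075. In mixed tissue, fewer cells of a type and less RNA per cell cannot be told apart. The part of cell makeup in the size of the miR-9 differences was not tested.

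Markers of neurons, a cell type rich in miR-9, were read next, and the part of neurons in the miR-9 differences was not tested. miR-124, miR-128 and miR-137 summed to at most 38.3 in any of the 24 samples, and miR-137 was at or below 0 in all 20 tumor-derived samples. At most 2 of the 3 were above the limit in any sample. Of 3 markers of ciliated airway cells, 2 were highest in normal lung. There miR-34b-5p was at 69.0 and 136 and miR-449a at 59.3 and 99.7, against at most 24.4 and 23.3 elsewhere. The most abundant, miR-34c, went the other way as deposited, with a mean of 844 for normal lung against 1047 to 2141 over the 5 tumor-derived groups. Its probe name states a share of positive control A as background, and with that share subtracted the mean was 422 for normal lung and at most 89.5 for any other group.

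Epithelial markers were used to check the labels of the tumor areas. The 6 markers (miR-200a, miR-200b, miR-200c, miR-141, miR-429 and miR-205) summed to 5062, 2592, 4416, 865 and 1085 in carcinoma. Their sum over EMT-like areas ranged from 53.0 to 1641. It was 4324, 2416, 2286 and 2285 in lung metastasis, and 44.6 to 71.3 in the cultures. EMT-like replicates 5, 6 and 7 were low in these markers and replicates 2 and 3 lay within the carcinoma range, so the 2 kinds of area overlapped. The lowest miR-9 among tumor samples, 426, was in EMT-like replicate 5, and the cultures, with epithelial sums as low as those of EMT-like replicates 5, 6 and 7, had miR-9 values within or near the tumor range.

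Carcinoma and EMT-like areas were compared to ask whether miR-9 differs between epithelial and spindle-like regions of a tumor. The mean was higher in carcinoma, by a log2 fold change of 0.51 (95% interval -0.26 to 1.28, limma adjusted p = 0.578), and the exact permutation p was 0.105. limma called 0.172% of probes, 1 of 583, and 81 had an unadjusted p under 0.05. The interval for miR-9 reaches from 0.834-fold to 2.42-fold. With the animal as a random block the log2 fold change of miR-9 was 0.51 (limma adjusted p = 0.577). Within animals, carcinoma over EMT-like was 1.26 for the sample labelled with 3 animals, -0.31 for GB71, -0.62 for the animal of carcinoma replicate 4 and 0.22 for that of carcinoma replicate 5 on the log2 scale. The label that names 3 animals, counted here as 1 animal, gave the largest of these differences. Carcinoma was higher in 2 of 4 animals and lower in 2, with a mean of 0.14 (exact sign-flip permutation p = 0.875, smallest possible 0.125). The sign of this mean turned with 4 of 5 other scalings, to -0.27 with the positive controls at the lowest, where carcinoma was higher in 1 of 4 animals. Among lettered animal labels the difference was 0.64 (3 against 2 samples, exact permutation p = 0.30), and among numbered labels 0.23 (2 against 5, exact permutation p = 0.619).

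Metastases were compared with both kinds of primary area to ask whether miR-9 changes between the primary site and the lung. Against carcinoma, the log2 fold change was -0.59 (95% interval -1.48 to 0.29, limma adjusted p = 0.799, exact permutation p = 0.127), where 1.37% of probes were called, 0.515% higher and 0.858% lower. Against EMT-like areas it was -0.09 (95% interval -0.91 to 0.74, limma adjusted p = 1.0, exact permutation p = 0.721), where 7.72% were called, 2.74% higher and 4.97% lower. Against the primary tumor, with carcinoma and EMT-like areas weighted equally, it was -0.34 (95% interval -1.10 to 0.42, limma adjusted p = 0.837). There 2.74% of probes were called, 0.515% higher and 2.23% lower. The exact permutation p, over the 12 primary tumor samples pooled, was 0.312. Splits of calls depended on processing. Against EMT-like areas, 16 higher and 29 lower became 6 and 62 without scaling, and 183 and 33 with the higher background. With 1 sample left out, the total of 45 there fell to as low as 12. Against the primary tumor, 3 higher and 13 lower became 1 and 33, and 147 and 23. Metastases overlapped both kinds of primary area in miR-9, and 1 of 4 lay below every carcinoma sample. Fitted with the animal as a random block, the values were -0.60, -0.09 and -0.34.

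Within animals, the metastasis had less miR-9 than the carcinoma of the same label in both pairs that exist, by a log2 of -0.86 in each (755 against 1373, and 588 against 1067). No test was run on these 2 pairs. Over the alternatives both stayed negative, from -1.34 to -0.25. Metastasis over EMT-like area was 0.40 for metastasis replicate 1, whose label names 3 animals, -0.64 for replicate 2, 0.46 for replicate 3 and -0.48 for replicate 4. It was higher in 2 of 4 animals, with a mean of -0.07 (exact sign-flip permutation p = 0.750, smallest possible 0.125). Without scaling and with the positive controls, metastasis was lower in 4 of 4 animals, with means of -0.84 and -0.89 and the smallest possible p for both. Metastasis was below carcinoma in both label series, by -0.56 (1 against 3 samples) and -0.38 (3 against 2 samples, exact permutation p = 0.500).

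**Figure D3:**
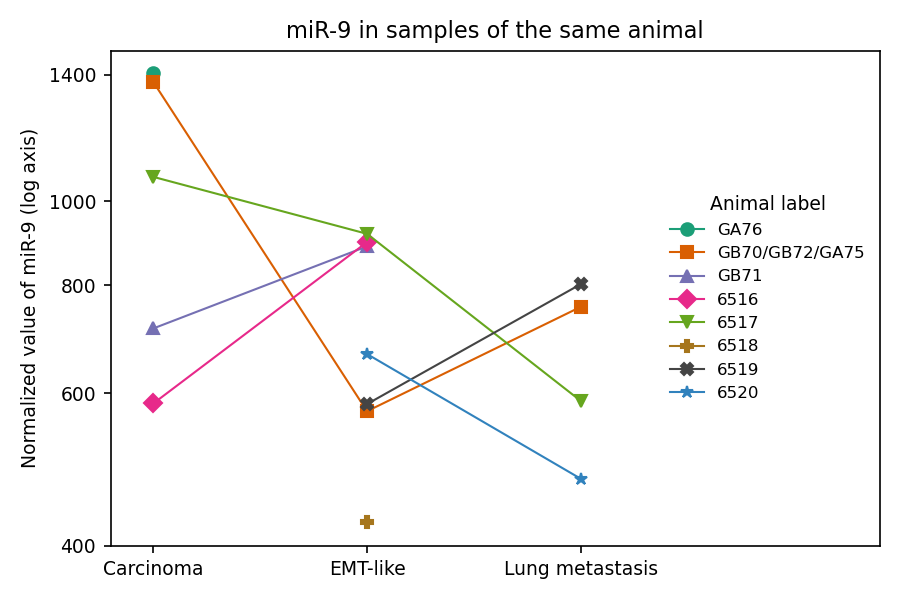
Normalized value of miR-9 (log axis) in carcinoma areas, EMT-like areas and lung metastases, with lines joining samples that carry the same animal label; GB70/GB72/GA75 is the label that names 3 animals, and 2 animals have 1 sample each. With TMM, lines from carcinoma to EMT-like areas fall in 2 animals and rise in 2, and lines to metastasis rise in 2 and fall in 2, splits that change with other scalings.

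Spheres, which are grown without attachment to enrich for cells with stem-like properties, were compared with the attached monolayer. The sphere values, 582 and 689, lay between the monolayer values, 355 and 1075. The log2 fold change was 0.04 (95% interval -1.28 to 1.35, limma adjusted p = 1.0), and 4.63% of probes were called, 2.92% higher and 1.72% lower. The exact permutation p was 1.0, and 0.333 was the smallest possible. The 2 monolayer values lay 3.03-fold apart and the 2 sphere values 1.18-fold. Over all probes, the split of calls depended on scaling. With TMM it was 17 higher and 10 lower, and with lanes divided by their miRNA total 16 and 25. Scaling on the top 100 miRNAs gave 18 and 22. Higher calls stayed the majority without scaling (7 and 1), with the mRNA controls (9 and 0) and with the positive controls (7 and 1).

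Cultured cells were compared with the 12 primary tumor samples to ask whether miR-9 is kept outside the animal. With carcinoma and EMT-like areas weighted equally, the log2 fold change of cultures over tumors was -0.38 (95% interval -1.14 to 0.38, limma adjusted p = 0.530). The exact permutation p, over the 12 tumor samples pooled, was 0.308. limma called 30.4% of probes, 8.58% higher and 21.8% lower in cultures. The split of calls turned over with processing. With TMM it was 50 higher and 127 lower, and with lanes divided by their miRNA total 147 and 84. Scaling on the top 100 miRNAs gave 221 and 60, and the higher background 253 and 113. Lower calls stayed the majority without scaling (4 and 151), with the mRNA controls (10 and 122) and with the positive controls (4 and 155). The log2 fold change of miR-9 also changed direction with scaling. It was 1.97 (limma adjusted p = 5.43e-06) when lanes were scaled by the 100 most abundant miRNAs, 0.78 (limma adjusted p = 0.0561) with the miRNA total and -1.44 (limma adjusted p = 0.0367) with the positive controls, and over all 26 alternatives the adjusted p ran from 5.43e-06 to 1.0. It was 0.02 without monolayer replicate 2. Against the median of the 196 often detected probes, miR-9 lay higher in cultures by 0.75 with TMM. The value was 0.78 with the 100 most abundant miRNAs, where that median moved by 2.32, and 0.77 with the miRNA total. These probes were chosen over lanes of all groups. Fewer mouse miRNAs were above the limit in the cultures, 104 and 126 in the monolayer and 108 and 119 in spheres. Part of the 196 was thus under the limit in each culture, which can lower their median. Whether miR-9 is higher in cultures relative to other miRNAs therefore cannot be told from these values. The direction of a change in absolute amount cannot be told from these lanes.

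Replicates varied for miR-9 about as much as for other probes. Over all 7 groups its within-group SD on the log2 scale was 0.67, against a median of 0.62 over the 196 often detected probes, of which 109 varied less. Within the 3 tumor groups it was 0.45 against a median of 0.53, and 70 probes varied less. The highest normalized value exceeded the lowest 2.41-fold for carcinoma, 2.16-fold for EMT-like areas and 1.68-fold for lung metastasis.

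Counts of calls in the lists below are set beside all 550 mouse miRNA probes tested. Of those, limma called 5.82% higher and 24.4% lower for carcinoma against NMG, 4.73% and 21.3% for EMT-like areas, and 7.45% and 42.7% for metastasis against normal lung. Of 13 other miRNAs of the nervous system, 0 were called higher and 3 lower for carcinoma against NMG, 0 and 2 for EMT-like areas, and 0 and 4 for metastasis against normal lung, near or below those shares. With the miRNA total, 1 was called higher for EMT-like areas and 1 for metastasis, where the median turned to 0.50. The calls over all 550 probes also moved with that scaling, to 8.36% higher and 17.1% lower for carcinoma, 8.91% and 16.0% for EMT-like areas, and 16.5% and 25.5% for metastasis with a median of -0.15. With TMM, the median log2 fold changes of the 13 were -1.78, -1.08 and -0.50, beside -0.65, -0.30 and -0.94 for all 550. miR-219, an oligodendrocyte miRNA, was called lower in all 3 comparisons. It was at or below 0 in every carcinoma, EMT-like and metastasis sample, and at 9.69 ± 3.20 (SD, n = 2) in NMG. miR-137, a regulator of neuron differentiation, was likewise at or below 0 in the tumor samples, and at 3.13 ± 0.231 (SD, n = 2) in NMG, with neither NMG sample above the limit. miR-212 averaged 0.444 ± 0.992 (SD, n = 5) for carcinoma against 7.69 ± 3.30 (SD, n = 2) for NMG. These calls rest on values close to background, and that of miR-212 was lost with 1 of 5 other scalings. Without scaling 11 of 13 were called lower for carcinoma, where 50.0% of all probes were.

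The 8 miRNAs known to promote metastasis in breast cancer models, a list that leaves out miR-9, moved both ways. For carcinoma against NMG 2 rose and 2 fell, for EMT-like areas 2 rose and 2 fell, and for metastasis against normal lung 1 rose and 2 fell. The list has only 8 members, and whether these counts differ from the shares over all probes was not tested. Their medians were 0.27, 0.66 and -0.86. With the miRNA total, 2 rose and 0 fell for metastasis against normal lung and the median turned to 0.62, in a setting where 16.5% of all probes rose and 25.5% fell. miR-221, which targets cell-cycle inhibitors, averaged 200 ± 91.4 (SD, n = 5) for carcinoma against 49.3 ± 7.41 (SD, n = 2) for NMG (log2 fold change 1.91, SE 0.60, limma adjusted p = 0.0195). miR-10b, linked to invasion, was at 67.9 ± 26.7 (SD, n = 5) against 384 ± 75.5 (SD, n = 2), a log2 fold change of -2.55 (SE 0.87, limma adjusted p = 0.0302). Of 5 other scalings, the call of miR-221 held in 2 and that of miR-10b in 3. miR-103, which lowers Dicer, was at 259 ± 34.6 (SD, n = 5) against 844 ± 118 (SD, n = 2), a log2 fold change of -1.71 (SE 0.29, limma adjusted p = 9.19e-05). For cultures against primary tumors 1 of the 8 rose and 4 fell (50.0%, against 23.1% of all probes). Without scaling 6 fell and with the miRNA total 3, where 27.5% and 15.3% of all probes fell. For metastasis against normal lung miR-103 also fell, but its direction turned with 2 of 5 other scalings, the miRNA total and the 100 most abundant miRNAs.

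miR-155, an immune and oncogenic miRNA, was the list member called higher in all 3 comparisons, with a mean of 377 ± 48.2 (SD, n = 5) for carcinoma, 360 ± 40.7 (SD, n = 7) for EMT-like areas, 505 ± 179 (SD, n = 4) for metastasis, 118 ± 14.8 (SD, n = 2) for NMG and 117 ± 70.0 (SD, n = 2) for normal lung. Its probe name states a share of 0.022 of positive control A as background. With that share subtracted, which was done after the data were seen, the means were 142, 180 and 181 in the tumor groups and 41.3 and 41.8 in the normal tissues. The 3 tumor groups stayed above the 2 normal tissues, while the order of carcinoma and EMT-like areas turned. Scaling by the mRNA controls turned the direction for metastasis against normal lung, with a log2 fold change of -0.32, and the call held in 2 of 5 other scalings in each comparison.

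With TMM, lower calls made up 14.3% of the 14 miRNAs known to restrain metastasis for carcinoma against NMG (24.4% of all probes). For EMT-like areas they made up 35.7% (21.3%), and for metastasis against normal lung 35.7% (42.7%). Without scaling these shares were 50.0%, 64.3% and 78.6%, where 50.0%, 35.1% and 65.8% of all probes fell. No difference between a list and all probes was tested. For carcinoma against NMG 1 rose and 2 fell, for EMT-like areas 1 rose and 5 fell, and for metastasis against normal lung 0 rose and 5 fell, with medians of -0.14, -2.51 and -1.65. With the miRNA total the counts were 1 and 2, 2 and 4, and 0 and 3, and the median for carcinoma turned to 0.31. miR-126-3p, the endothelial marker above, fell in all 3. miR-205, a miRNA of basal epithelium, averaged 53.9 ± 44.2 (SD, n = 5) for carcinoma against 1410 ± 134 (SD, n = 2) for NMG (log2 fold change -5.02, SE 0.78, limma adjusted p = 3.74e-05). miR-31, which restrains several steps of metastasis, went the other way, at 92.5 ± 25.0 (SD, n = 5) against 24.2 ± 0.425 (SD, n = 2), a log2 fold change of 1.86 (SE 0.40, limma adjusted p = 0.00127). That call held in 2 of 5 other scalings. For metastasis against EMT-like areas 7 of the 14 rose and 3 fell (50.0% and 21.4%), where 2.91% and 5.27% of all probes did, and 5 of the 7 are epithelial markers named above. Without scaling 5 rose and 4 fell, where 1.09% and 11.3% of all probes did. For cultures against primary tumors 1 rose and 9 fell (64.3%, against 23.1% of all probes). Without scaling 10 fell and with the miRNA total 7, where 27.5% and 15.3% of all probes fell. Members that fell with TMM include miR-126-3p and the epithelial markers miR-200a, miR-200b, miR-200c, miR-141 and miR-429.

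The miR-17-92 cluster is switched on by MYC, also a known activator of miR-9. Of its 6 panel probes, 2 also read miR-106a or miR-20b, which lie in another cluster. The 6 probes showed no call for carcinoma or EMT-like areas against NMG. For metastasis against normal lung 0 rose and 2 fell, namely miR-92a, at 2.38 ± 2.76 (SD, n = 4) against 24.3 ± 13.0 (SD, n = 2), and miR-18a, which was under the limit in all 6 samples. The medians were 0.24, -0.31 and 0.14. Calls and direction turned with the miRNA total, where 1 rose for carcinoma, 3 rose and 1 fell for metastasis, and the medians were 0.70, 0.04 and 1.63. Over all probes 8.36% rose for carcinoma, and 16.5% rose and 25.5% fell for metastasis, so for these comparisons a move of the cluster's own is not shown. For cultures against primary tumors 0 rose and 4 of 6 fell (66.7%, against 23.1% of all probes). These counts were the same without scaling and with the miRNA total, where 27.5% and 15.3% of all probes fell. miR-19a was at or below 0 in all 4 cultures and averaged 368 ± 171 (SD, n = 12) for primary tumors.

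The probes whose group means ran most like those of miR-9 were sought among 195 other mouse miRNAs above the limit in at least 12 lanes, by Pearson correlation over the 7 group means. The 5 with the highest values were miR-423-5p (0.94), miR-1949 (0.91), miR-183 (0.91), miR-543 (0.90) and miR-155 (0.89). Spearman correlations over the same 7 means were 0.43, 0.64, 0.89, 0.32 and 0.32, and only 1 of these 5, miR-183, was also among the 5 highest by Spearman. The 7 points fall into 5 tumor-derived and 2 normal groups, so these correlations mostly describe that split. miR-183 had a median value of 191 for carcinoma, 112 for EMT-like areas, 157 in lung metastasis, 30.5 in NMG, 44.3 in normal lung, 121 in the monolayer and 131 in spheres. The 2 monolayer values were 24.5 and 217, with 1 above the limit. The lower one lay below the lowest NMG and normal lung values, 30.4 and 40.3. The Spearman correlation of miR-183 with miR-9 over the 24 samples was 0.87, and that of miR-423-5p was 0.19. miR-365, miR-338-3p and miR-99a ran most opposite, at -0.98, -0.98 and -0.95. miR-365 was at 736 and 1016 in NMG and 536 and 696 in normal lung, and between 42.8 and 199 in all tumor-derived samples.

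The likeness of miR-543 to miR-9 depended on how control signal was treated. Its probe name states a share of 0.009 of positive control A, and with that share subtracted its correlation with miR-9 turned from 0.90 to -0.42 and it stayed above the limit in 10 of 24 lanes in place of 24. For miR-155 the correlation went from 0.89 to 0.85. For miR-34c, named here for the largest stated share, 0.124, it went from 0.85 to -0.29 and the number of lanes above the limit from 24 to 9. The name of the miR-9 probe states no such share.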

How the data were processed

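Counts from the nCounter mouse miRNA assay of 24 samples were used. The deposited values are a score: per lane, whole-number barcode counts from which the authors had subtracted the mean of 6 negative controls, with a lowest value of -20. Partek is named in the submitters' processing notes, with no version.

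Values were floored at 0 and divided by TMM factors over 599 miRNA probes (30% of log ratios and 5% of levels trimmed). The pseudocount was 1. All 7 groups were fitted together with limma 3.58.1 (lmFit, eBayes with trend) in R 4.3.3, and p-values were adjusted by Benjamini-Hochberg over 583 probes. For miR-9 alone, exact permutation tests, two-sided, were run in Python 3.11.15. The procedure was tested on simulated data with changes in both directions, a setting that does not probe the mostly lower calls against normal tissue.

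Alternatives were other scalings, keeping probes that reach 20 in 2 or more lanes, subtraction of 2 more SD of the negative controls, a pseudocount of 10, fits restricted to the compared groups, a random block for the animal or culture, a term for the label series, and omission of each sample in turn. The pairing by animal comes from the labels. Cultures were blocked by replicate number alone, which the labels do not tie between monolayer and spheres. Deviations from group means correlated with a median of 0.10 within animals (10 pairs, range -0.31 to 0.30).

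The members and lists were chosen with earlier results of these data known. Named miRNAs were the 5 most and 3 least like miR-9 over 7 group means, and called list members with the lowest adjusted p. Sequences and positions are from RefSeq tables of GRCm38.p6.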

Additional observations from a re-analysis of the deposited data

How the results depend on the processing

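The differences of carcinoma and EMT-like areas from NMG and of lung metastasis from normal lung kept their direction and an adjusted p under 0.05 in all 17, 19 and 16 alternatives, with log2 fold changes of 5.41 to 7.91, 5.25 to 7.40 and 3.45 to 7.24, and miR-9 kept the largest fold change among probes called higher in each. Leaving out 1 sample gave 6.02 to 7.69, 5.51 to 7.18 and 4.77 to 6.91. Carcinoma against EMT-like areas, and metastasis against carcinoma and against primary tumors, kept their direction without a call in all 23, 20 and 27 alternatives. With the animal, or the replicate number of a culture, as a replicate block (consensus correlation -0.00510), no call of miR-9 changed, and metastasis over carcinoma was -0.60.

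The sign turned in results that TMM left uncalled. Metastasis over EMT-like areas, -0.20 to 0.05 with 1 sample left out, was 0.05 without metastasis replicate 4. Normal lung over NMG was -0.21 with the 100 most abundant miRNAs, -0.30 with the miRNA total and -0.66 to 1.48 with 1 sample left out (-0.66 without normal lung replicate 2, -0.42 without NMG replicate 2). Spheres over monolayer was -0.19 without scaling, -0.06 with the 100 most abundant miRNAs, -0.22 with the miRNA total, -0.17 with the positive controls and -0.76 to 0.83 with 1 sample left out (-0.76 without monolayer replicate 2, -0.09 without spheres replicate 2). Cultures over primary tumor turned to 1.97 with the 100 most abundant miRNAs (called) and 0.78 with the miRNA total, kept its sign at -1.44 with the positive controls (called), and was -0.78 to 0.02 with 1 sample left out (0.02 without monolayer replicate 2). The cause was not tested. Where 1 of 2 samples was left out, the other was assumed to vary like the other groups.

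Numbers of probes called moved by more than 1.5 times in several settings. From 171 for carcinoma against NMG they ran from 102 to 318, from 145 for EMT-like areas from 98 to 317, from 287 for metastasis against normal lung from 151 to 389, and from 177 for cultures from 132 to 366. From 1 for carcinoma against EMT-like areas they ran from 0 to 19, from 8 for metastasis against carcinoma from 1 to 19, from 45 against EMT-like areas from 7 to 216, and from 16 against primary tumors from 10 to 170. From 68 for normal lung against NMG they ran from 30 to 160, and from 27 for spheres from 0 to 49. Within animals, carcinoma minus EMT-like area averaged -0.27 to 0.14 over the alternatives. Metastasis minus EMT-like area averaged -0.84 without scaling and -0.89 with the positive controls, settings added after the data were seen (exact permutation p = 0.125 for both). Called list members numbered 3 against 11 without scaling for nervous-system miRNAs and 3 against 7 for restraining miRNAs (carcinoma), and 4 against 9, 3 against 6, 5 against 11 and 2 against 4 for the nervous-system, promoting, restraining and miR-17-92 lists (metastasis against normal lung). Without scaling 50.0% and 65.8% of all mouse probes were called lower there. Of the 5 probes most like miR-9, 1 was kept by Spearman correlation and 3 with the control share subtracted.

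Precision is limited by 2 samples in each normal tissue and culture group, by miR-9 values at the detection limit in 2 of 4 normal samples, and by lane sums that differ between groups. Samples of one animal share their source, and tests over areas treat them as independent except where the animal is the block. The 2 cultures of a kind are labelled biological replicates, with nothing said of how they were grown apart.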
